A study of Mus musculus with 21 samples.

Results

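The 45 genes described here encode proteins of mitosis, from the cyclins that start it to the proteins that separate the daughter cells. They were chosen by gene symbol as a given list, and all 45 were found in the tables of both cell types, which hold 23869 genes for lung epithelium and 21170 for lung fibroblasts, with 20004 genes in both. The cells came from C57BL/6 mice that carry a Col1a2-GFP transgene, in which green fluorescent protein (GFP) marks cells that express the collagen gene Col1a2. Lungs were digested with enzymes and stained for CD31, CD45, Ter119, CD146 and Epcam, and living cells without the lineage markers were sorted. Epithelial cells were taken as Epcam+ and GFP-, although the label of the E18.5 epithelium does not name the GFP gate, and fibroblasts as Epcam- and GFP+. All groups share the strain and the transgene, none was treated, and the groups differ in cell type and age. Each cell type has 2 libraries at embryonic day 18.5 (E18.5) and 2 at each of postnatal days 0.5, 2, 7 and 28 (P0.5, P2, P7 and P28), and fibroblasts have 1 more at P56, which makes 21 libraries. The GFP gate limits the fibroblasts to cells with an active transgene. The labels do not say how many animals went into a library or whether the replicates came from different animals, so p-values measure only how these libraries scatter, and that scatter may be technical.

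In mitosis, cyclin-dependent kinase 1 (Cdk1) with cyclins A and B starts chromosome condensation and spindle assembly. Condensin and topoisomerase II shape and untangle the chromosomes, motor proteins build the spindle, and the kinetochores attach chromosomes to it under the watch of the spindle checkpoint. The anaphase promoting complex then releases separase, which cuts the link between sister chromatids. Most of these genes are transcribed mainly in G2 and mitosis, so their RNA is widely used as a sign of dividing cells. The mouse lung forms its alveoli in the first weeks after birth, a period of cell division that ends as the lung matures.

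Transcripts were counted by 3'SAGE-seq, which takes 1 short tag per polyadenylated transcript, close to its 3' end, so a value does not grow with transcript length. Levels of different genes also depend on how well the tag of each was recovered and mapped, which was not tested. The deposited values are reads scaled per library, and 1 read was worth 0.134 to 0.456 units. The libraries held 2146071 to 5729829 reads, and 3 reads, the limit that a count of 0 allows, came to 0.403 to 1.37 units. The summed value of the epithelial markers was 5624 to 16030 in epithelial and 3.56 to 33.6 in fibroblast libraries, and that of the fibroblast markers 5457 to 15290 in fibroblast and 17.3 to 191 in epithelial libraries. Between stages, log2(value + 1) was compared with limma, and p-values were adjusted by Benjamini-Hochberg over all genes tested, 12143 in epithelium and 11954 in fibroblasts, with a threshold of 0.05. All log2 differences are on this scale, and those of low genes are compressed by the added 1. A gene was tested if its value reached 3 in at least 2 libraries, so a low gene enters through the stage where it is high. Of the mitosis genes, 25 were tested in epithelium, 25 in fibroblasts, 23 in both and 18 in neither.

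Most of the promoter windows found for the mitosis genes held 2 short motifs. The cell cycle homology region (CHR), searched here as TTTGAA or TTTAAA, and the CCAAT box are both known from promoters of genes that are expressed in G2 and mitosis. RefSeq promoter windows (GRCm38.p6), from 250 bases before to 50 after the start, were found for 36 of the 45 genes. The windows of Ccna2, Cdc25c, Foxm1, Pbk, Aurkb, Incenp, Kif20a, Tpx2 and Smc4 were not analysed here. On either strand, 30 of the 36 windows held a CHR (83.3%), 27 a CCAAT box (75%), 25 both (69.4%) and 17 at least 2 CCAAT boxes (47.2%). The corresponding shares were 27.8%, 37.9%, 10.9% and 12.2% of 27025 genes with a window, and 19.1%, 37.7%, 7.44% and 14.1% of the 9596 such genes that were tested in either cell type. For the 21 mitosis genes among these 9596, the shares were 85.7%, 81.0%, 76.2% and 47.6%. No overlap between matches was removed, and a match is a description of the letters only. The 200 bases before the start of 5 genes are shown because their transcripts had large differences in the comparisons that follow and they stand for entry, chromosome structure and spindle: Top2a (chr11:99024190-99024389, minus strand), Ncapg (chr5:45669725-45669924, plus strand), Mki67 (chr7:135716380-135716579, minus strand), Ccnb2 (chr9:70421555-70421754, minus strand) and Kif11 (chr19:37376182-37376381, plus strand). Sequences run 5' to 3' on the strand of the gene, and capitals mark the CHR (TTTGAA, or TTCAAA on the other strand) and the CCAAT box (ATTGG on the other strand).
Top2a: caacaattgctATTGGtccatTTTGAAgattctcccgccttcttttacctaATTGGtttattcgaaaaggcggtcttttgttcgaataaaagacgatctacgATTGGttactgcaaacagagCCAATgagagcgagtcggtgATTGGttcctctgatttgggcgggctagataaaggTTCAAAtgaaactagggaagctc
Ncapg: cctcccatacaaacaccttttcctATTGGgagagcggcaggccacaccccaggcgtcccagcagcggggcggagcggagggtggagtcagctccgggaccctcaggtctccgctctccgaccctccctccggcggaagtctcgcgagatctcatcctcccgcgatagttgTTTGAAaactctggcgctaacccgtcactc
Mki67: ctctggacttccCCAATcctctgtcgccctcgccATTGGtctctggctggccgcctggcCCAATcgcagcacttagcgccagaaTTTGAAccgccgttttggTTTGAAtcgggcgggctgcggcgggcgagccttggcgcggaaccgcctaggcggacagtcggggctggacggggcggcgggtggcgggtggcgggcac
Ccnb2: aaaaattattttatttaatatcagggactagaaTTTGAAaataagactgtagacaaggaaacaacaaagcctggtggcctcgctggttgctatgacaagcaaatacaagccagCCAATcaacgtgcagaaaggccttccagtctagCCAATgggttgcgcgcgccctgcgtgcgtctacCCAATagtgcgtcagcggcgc
Kif11: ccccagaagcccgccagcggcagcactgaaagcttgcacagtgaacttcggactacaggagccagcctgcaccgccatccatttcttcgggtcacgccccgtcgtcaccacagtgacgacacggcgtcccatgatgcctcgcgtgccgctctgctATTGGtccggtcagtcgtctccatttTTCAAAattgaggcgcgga
Top2a had 6 CCAAT boxes and 2 CHR matches in its whole window, more boxes than the other 4 genes shown. Kif11 had 1 of each, with the CHR at 19 and the CCAAT box at 45 bases before the start. In Ncapg the CHR lay 30 bases before the start, and in Mki67 both CHR matches lay between 116 and 98 bases before it.

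The measured levels of the mitosis genes spanned a wide range, and some of the best known regulators were among the lowest. Whether their tags were recovered less well was not tested. Cdk1, the kinase that starts mitosis, gave 19 reads in the 10 epithelial libraries together, with a highest value of 1.73, and 31 reads in the 11 fibroblast libraries, with a highest value of 3.68. Ttk, a checkpoint kinase, gave 1 and 4 reads, and Sgol1, which protects cohesion at the centromere, gave 1 and 3. The other members tested in neither cell type were Ccnb1, Cdc25c, Foxm1, Aurka, Plk1, Melk, Aurkb, Cdca8, Mad2l1, Ndc80, Kif23, Kif2c, Ube2c, Cdc20 and Anln. Pbk and Cenpa were not tested in epithelium, and Kif20a and Ect2 were not tested in fibroblasts. At the other end lay Smc4, a core subunit of condensin, with 80.7 to 219 in epithelium and 11.3 to 118 in fibroblasts. Bub3, a checkpoint protein, lay at 30.8 to 73.0 in epithelium and 29.2 to 85.9 in fibroblasts, and Top2a, which encodes topoisomerase II alpha, at 5.01 to 96.9 and 1.21 to 120.3. The 3' ends of Ccna2, Bub3, Kif20a, Prc1, Ncapg, Ube2c and Cdc20 overlap a gene on the other strand, and Foxm1 overlaps 2 genes on its own strand. The sources used here do not say whether tags were counted by strand, so reads of such partners cannot be told apart. Ccnb1, Ccnb2 and Kif4 have annotated pseudogenes that could share tags.

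**Figure D1:**
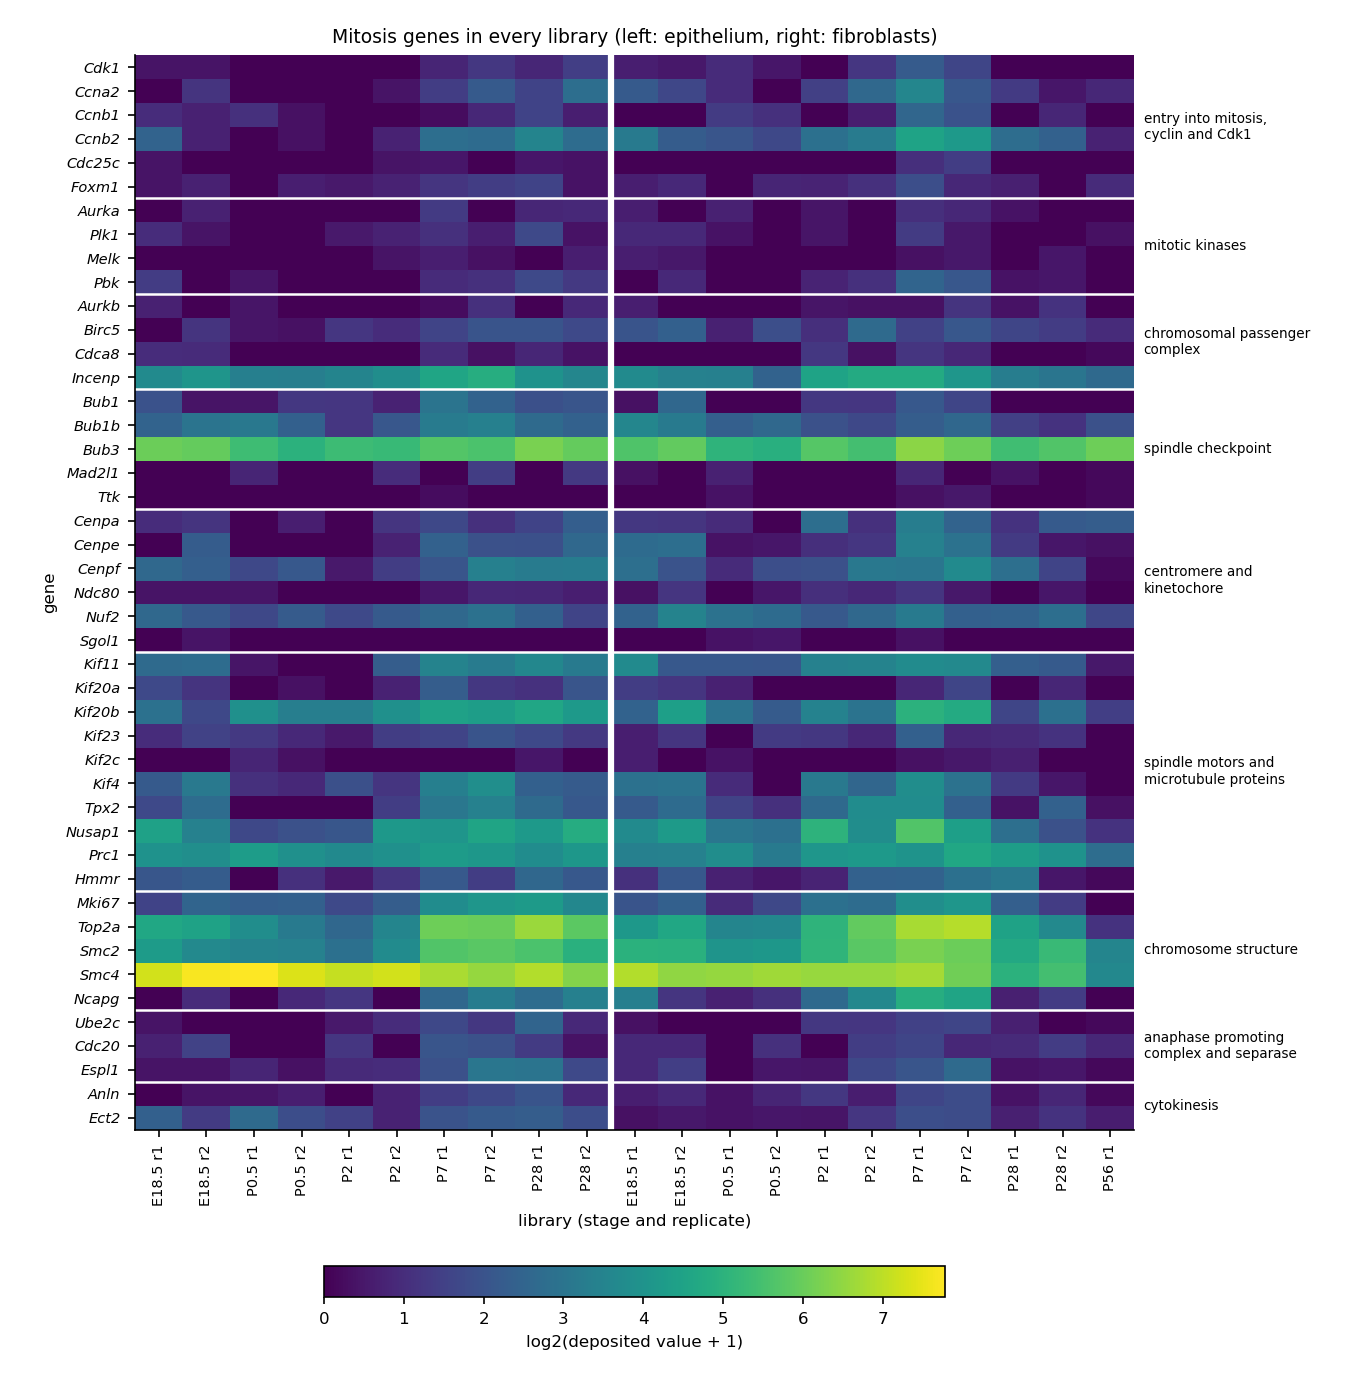
Values of the 45 mitosis genes in every library, as log2 of the deposited value plus 1 (colour), with genes grouped by role in rows and libraries by stage in columns, epithelium left and fibroblasts right of the white bar. Smc4 and Bub3 stand out as high in every epithelial library, and most other genes are brightest in the fibroblast P7 columns and the epithelial P7 and P28 columns.

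Over the stages, 35 of the 45 genes had their highest fibroblast mean at P7, and 29 had their lowest at P0.5. A gene with tied lowest means was counted at each tied stage. In epithelium 23 genes were highest at P28 and 17 at P7. With ties counted in the same way, 27 were lowest at P0.5, 18 at P2, 7 at E18.5, 3 at P28 and 2 at P7. Of the 25 tested in epithelium, 15 were lowest at P0.5 and 7 at P2. Among the 20 genes not tested in fibroblasts, 16 were highest at P7. Ccnb1 (cyclin B1) gave 26 reads in the P7 pair and 2 in the P28 pair, and Cdk1 19 and 0, both without a test. Summed without Smc4 and Bub3, the genes came in the fibroblast pairs to 174 to 191 at E18.5, 84.6 to 95.0 at P0.5, 218 to 279 at P2, 429 to 503 at P7 and 121 to 131 at P28, and to 41.9 at P56. The same sum in epithelium was 137 to 152, 79.2 to 97.7, 65.6 to 115, 310 to 340 and 259 to 337. With Smc4 and Bub3, which lie at high levels, the epithelial sums were 368 to 403, 275 to 357, 241 to 303.5, 472 to 480 and 400 to 528. Their relative rise to P7 was smaller. The full fibroblast sums were 339 to 342, 215 to 221, 365 to 416, 562 to 696 and 203 to 213, and 118 at P56. The fibroblast pairs at P7 and P28 did not overlap, and the epithelial pairs did. In sorted bulk cells, fewer dividing cells and less mitotic RNA per cell cannot be told apart.

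**Figure D2:**
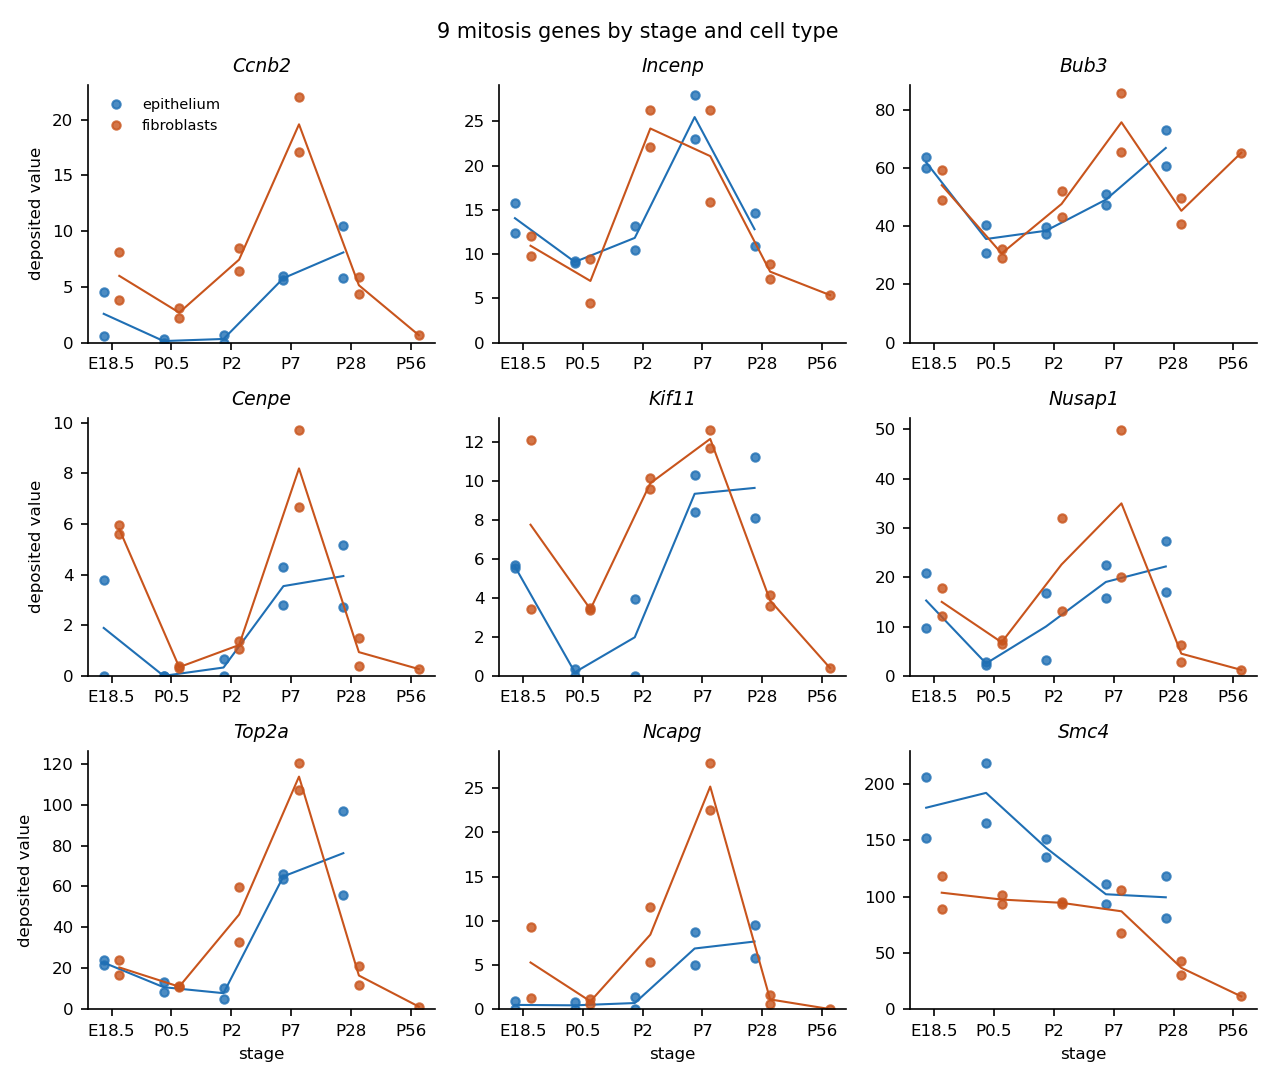
Deposited values of 9 mitosis genes by stage, evenly spaced on the axis and not to scale in time, for epithelium (blue) and fibroblasts (orange). Points are libraries and lines join group means; Top2a and Ncapg peak at P7 in fibroblasts and stay up at P28 in epithelium, while Smc4 in epithelium is highest before P2.

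In fibroblasts, mitosis genes fell between P7 and P28. Of the 25 tested, 17 fell and 0 rose, where 9.49% of all genes tested fell and 11.3% rose. The median log2 difference was -1.68, against 0.002 over all genes, and all 25 differences were below 0. The P28 pair lay below the P7 pair without overlap for 20 of the 25, against 28.1% of all genes. The count was 8 without P7 replicate 1 and 9 without either P28 library, and it was 11 with DESeq2 and 11 when only genes with a value of 10 in 2 libraries were tested. Top2a, Ncapg, Nusap1, Smc4, Cenpe and Kif4 passed under every alternative in which they were tested.

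Both tested cyclins of mitotic entry fell. Ccnb2 (cyclin B2) had values of 22.1 and 17.1 at P7 and of 5.91 and 4.39 at P28. The stages did not overlap, and Ccnb2 fell by 1.75 on the log2 scale (SE 0.43, adjusted p = 0.00697). Ccna2 (cyclin A2) fell by 1.94 (adjusted p = 0.0274). The mitotic kinase Pbk had 12.4-fold more at P7 than at P28 (95% counting interval 3.09 to 107), with a log2 difference of -1.89 (adjusted p = 0.0176). In the chromosomal passenger complex, which corrects faulty attachments, the scaffold Incenp had 26.3 and 15.9 at P7 and 8.86 and 7.18 at P28 (log2 difference -1.26, adjusted p = 0.0232). Its partner Birc5 (survivin) did not pass, with a log2 difference of -0.32.

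Of the spindle checkpoint, Bub1 and Bub3 fell and Bub1b did not pass (-1.14). Bub1, a kinase at the kinetochore, was at 0 reads in both P28 libraries (adjusted p = 0.0414). It was at least 5.7-fold lower than at P7, taking 3 reads over the P28 pair as the floor. This bound leaves out the counting error of the P7 reads. Bub3 had 85.9 and 65.6 at P7 and 40.8 and 49.9 at P28 (log2 difference -0.72, adjusted p = 0.0345), a smaller difference at a much higher level. At the kinetochore, the motor Cenpe had 9.71 and 6.68 at P7 and 1.48 and 0.399 at P28, and fell by 2.29 (SE 0.50, adjusted p = 0.00256). Cenpa, the centromeric histone, Cenpf and Nuf2 did not pass, with log2 differences of -1.24, -1.17 and -0.16.

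Among spindle proteins, 4 of 7 fell. Nusap1, which bundles spindle microtubules, had 49.9 and 20.04 at P7 and 6.20 and 2.79 at P28. The pairs did not overlap, although the P7 libraries themselves differed widely, and the log2 difference was -2.65 (SE 0.47, adjusted p = 0.000455). The kinesins Kif20b (-2.62), Kif4 (-2.49) and Kif11 (-1.44), of which Kif11 pushes the spindle poles apart, had adjusted p of 0.0018, 0.00201 and 0.0363. Tpx2, Prc1 and Hmmr did not pass, with -1.68, -0.16 and -0.85. Prc1, which bundles the microtubules of the spindle midzone, kept within 5.91 to 23.8 over all fibroblast libraries, with the lowest value at P56.

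All 5 chromosome structure genes fell. Top2a had 107 and 120.3 at P7 and 21.3 and 11.6 at P28, a log2 difference of -2.78 (SE 0.33, adjusted p = 6.67e-06). Ncapg, a condensin I subunit, had 27.8 and 22.6 at P7 and 0.591 and 1.59 at P28 (log2 difference -3.68, SE 0.60, adjusted p = 0.000177). Neither gene's pairs overlapped, and Ncapg had the largest log2 difference of the 25. Mki67, whose protein coats mitotic chromosomes, had 13.4 and 15.9 at P7 and 4.13 and 1.59 at P28 (-2.09, adjusted p = 0.00381). The condensin core subunits Smc2 and Smc4 fell by 1.15 and 1.21 (adjusted p = 0.00644 and 0.00168). Espl1, the separase, was 11.9-fold lower at P28 (95% counting interval 2.96 to 103; log2 difference -1.94, adjusted p = 0.0193). Pbk and Espl1 were each the only tested gene of their role, and both reached the filter value of 3 in the P7 pair alone, so the way they entered the test favoured a fall from P7.

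Fibroblast values were low just after birth. From E18.5 to P0.5, 4 of 25 genes fell and 0 rose, where 7.34% of all genes fell and 8.05% rose, and the median difference was -0.89 against -0.01 over all genes. The P0.5 pair lay below the E18.5 pair for 19 of the 25, against 29.8% of all genes. Cenpe had 5.62 and 5.97 at E18.5 and 0.315 and 0.374 at P0.5, a 16.8-fold lower level (95% counting interval 4.32 to 145; adjusted p = 0.00336). Kif4, a chromosome-bound kinesin, had 6.46 and 6.82 and then 0.944 and 0, a ratio of 12.9 (4.09 to 65.1; adjusted p = 0.00344). Neither overlapped between the stages. Smc2 (-0.87, adjusted p = 0.0436) and Bub3 (-0.79, adjusted p = 0.0275) also fell. The count was 2 without P0.5 replicate 1 and 1 without replicate 2, and 2 with DESeq2, without the filter and with the stricter filter.

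From P0.5 to P2, 8 of the 25 genes rose in fibroblasts and 0 fell, where 9.74% of all genes rose and 7.2% fell, with a median difference of 1.19 against 0.03. Top2a had 10.7 and 11.2 at P0.5 and 32.7 and 59.8 at P2 (log2 difference 1.92, SE 0.33, adjusted p = 0.000619). Incenp had 9.44 and 4.49 and then 22.04 and 26.3 (1.73, SE 0.38, adjusted p = 0.00373). Kif4, at 7.82 and 4.94 by P2, had the largest difference (2.38, adjusted p = 0.00383). The other 5 were Ncapg (2.26), Tpx2 (1.92), which loads Aurora A on the spindle, Mki67 (1.49), Nusap1 (1.47) and Smc2 (1.36). The P2 pair lay above the P0.5 pair for 20 of the 25, against 32.3% of all genes. The count was 4 without P0.5 replicate 1, 2 without P0.5 replicate 2, 4 and 5 without P2 replicates 1 and 2, and 5 without the filter.

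From P2 to P7, 2 of the 25 rose and 0 fell, where 6.64% of all genes changed, 2.36% upward and 4.28% downward. Cenpe had 1.07 and 1.37 at P2 and 9.71 and 6.68 at P7 (log2 difference 2.04, SE 0.50, adjusted p = 0.0165), and Top2a rose by 1.34 (SE 0.33, adjusted p = 0.0199). The median difference was 0.68 against 0.01, and 14 of the 25 did not overlap upward, against 24.5% of all genes. The count was 0 without P2 replicate 1 or P7 replicate 1 and 1 without the second library of either stage. It was 1 with DESeq2, without the filter and with the stricter filter, and 5 with a pseudocount of 4.

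The P28 fibroblasts were below E18.5 for 5 of the 25 genes and above it for 0, where 14.9% of all genes were lower and 18.7% higher. The count of lower genes was thus near the share of all genes. The P28 pair lay below the E18.5 pair for 10 of the 25, against 31.2% of all genes, and above it for 1, against 33.6%. The 5 genes that passed were Bub1b (-2.08, adjusted p = 0.00117), Kif4 (-2.04, adjusted p = 0.00517), Cenpe (-1.87, adjusted p = 0.0066), Nusap1 (-1.59, adjusted p = 0.0136) and Smc4 (-1.48, adjusted p = 0.000133). Bub1b, a part of the checkpoint complex, did not follow the peak at P7. It had 10.96 and 8.10 at E18.5, 4.09 and 5.24 at P0.5, 2.84 and 2.19 at P2, 3.94 and 5.01 at P7 and 1.77 and 1.196 at P28. The E18.5 pair was above every later fibroblast library. The count was 3 without P28 replicate 2 and 2 with the stricter filter.

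The P56 library had no replicate and entered no test. It lay below both P28 libraries for 25 of the 45 genes and for 20 of the 25 tested (80%), against 45.7% of all genes tested. Top2a was at 1.21, Smc4 at 11.3, and Ncapg, Mki67 and Kif4 were at 0 reads. It lay above both P28 libraries for 7 of the 45, among them 3 of the 25 tested, Bub3 (65.2), Bub1b (2.82) and Cenpa (3.89). Over all fibroblast stages with replicates, 20 of the 25 genes differed between stages, where 48.9% of all genes did; the count was 12 without P7 replicate 1 and 12 with the stricter filter.

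**Figure D3:**
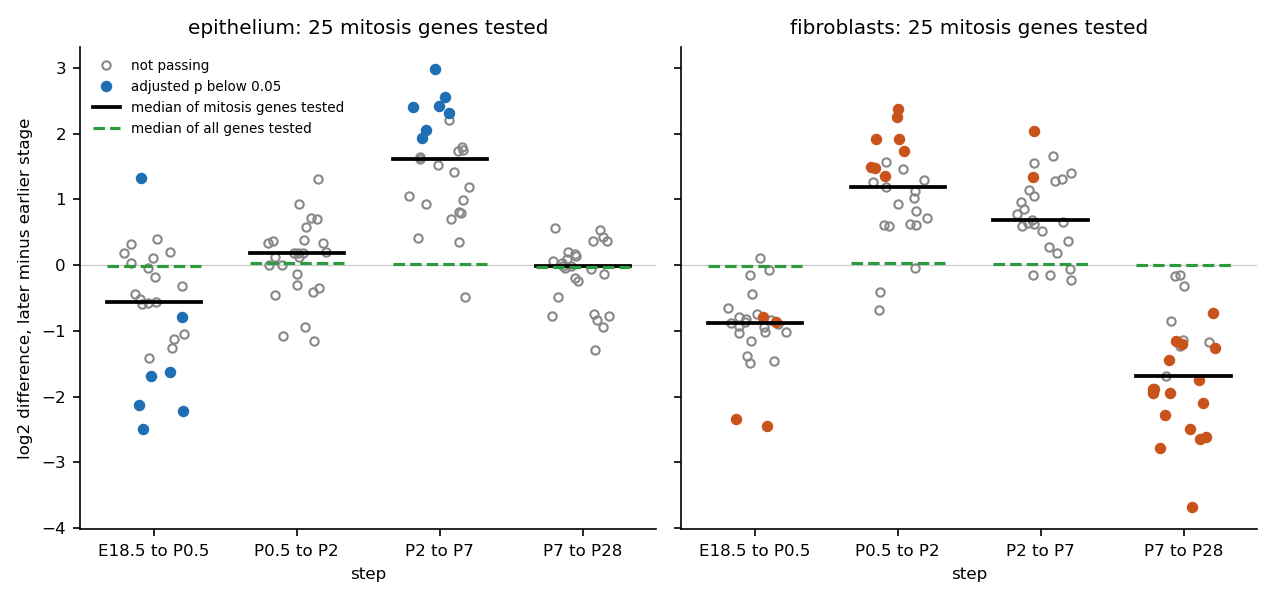
Log2 differences (later minus earlier stage, on log2 of the value plus 1) of the tested mitosis genes at each step, 25 genes in each cell type, spread sideways for legibility. Filled points have an adjusted p below 0.05, black bars are medians of the mitosis genes and dashed green bars medians of all genes tested; the fibroblast median is 1.19 from P0.5 to P2 and -1.68 from P7 to P28, and the epithelial median is 1.61 from P2 to P7.

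Epithelium also had lower values after birth. From E18.5 to P0.5, 6 of the 25 tested genes fell, where 7.09% of all genes fell, and 1 rose, where 7.24% rose. The median difference was -0.56 against -0.02, or -0.52 with genes at 0 set to their bound. Kif11 had 5.51 and 5.68 at E18.5 and 0.367 and 0 at P0.5, a ratio of 35 (95% counting interval 5.89 to 1420; log2 difference -2.50, adjusted p = 0.0132). Tpx2 had 2.27 and 5.68 and then 0 reads in both P0.5 libraries, at least 8.34-fold lower (adjusted p = 0.0145), leaving out the counting error at E18.5. Neither overlapped between the stages. Nusap1 (-2.13, adjusted p = 0.0197), Kif4 (-1.69, adjusted p = 0.0234), the hyaluronan receptor and spindle protein Hmmr (-1.63, adjusted p = 0.0495) and Bub3 (-0.79, adjusted p = 0.0236) were the other 4. All but Bub3 encode spindle proteins, and the 1 gene that rose was another kinesin, Kif20b, from 6.49 and 2.21 to 13.9 and 9.05 (1.32, SE 0.40, adjusted p = 0.042). Of the 25, 12 did not overlap downward, against 29.6% of all genes. The total of 7 was 4 and 2 without E18.5 replicates 1 and 2, 1 and 0 without P0.5 replicates 1 and 2, and 1 without the filter.

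From P0.5 to P2 no mitosis gene passed in epithelium, where 8.82% of all genes did and 5.13% rose. By limma 3 of the 25 had an unadjusted p below 0.05, edgeR called 0 and DESeq2 1, and 2 passed without P2 replicate 1. Top2a had 13.2 and 8.20 at P0.5 and 5.01 and 10.6 at P2, which overlap. The median difference was 0.18, against 0.03 over all genes.

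From P2 to P7, 7 of the 25 genes rose in epithelium and 0 fell, where 3.71% of all genes changed, 1.55% upward and 2.17% downward. The median difference was 1.61 against 0.01, 24 of the 25 differences were above 0, and 23 did not overlap upward, against 22.9% of all genes. Chromosome structure gave 4 of the 7. Top2a had 5.01 and 10.6 at P2 and 66.3 and 63.5 at P7 (log2 difference 2.98, SE 0.35, adjusted p = 0.000328). Smc2 had 6.38 and 12.5 and then 50.2 and 54.3 (2.41, SE 0.34, adjusted p = 0.00134), and Mki67 2.28 and 3.96 and then 12.9 and 15.9 (1.93, SE 0.42, adjusted p = 0.0224). None of these pairs overlapped. Ncapg rose 11.3-fold (95% counting interval 3.69 to 56.5; adjusted p = 0.0392) and the cyclin Ccnb2 15.2-fold (4.01 to 129; adjusted p = 0.0341). The spindle genes Tpx2 (2.56, adjusted p = 0.0183) and Kif4 (2.05, adjusted p = 0.0235) were the other 2. Ncapg reached the filter value of 3 only at P7 or P28, as did the tested genes Ccna2, Kif20a, Birc5 and Espl1. Ccnb2 and Tpx2 reached it elsewhere only in the higher E18.5 library, at 4.54 and 5.68. The way these genes entered the test favoured a rise to P7, also in the median and the overlap count. Top2a and Smc2 passed under every alternative. The count was 4 without P2 replicate 1, 2 without either P7 library, 2 without the filter and 3 with the stricter filter.

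From P7 to P28 no mitosis gene passed in epithelium, where 7.28% of all genes did and 4.87% rose, and the median difference was -0.02 against -0.03. By limma 2 of the 25 had an unadjusted p below 0.05, edgeR called 1 and DESeq2 0. The P28 pair lay below the P7 pair for 8 of the 25, against 24.5% of all genes, and above it for 1, against 23.4% of all genes. Top2a had 96.9 and 55.6 at P28, on both sides of its P7 values, and Ncapg had 5.79 and 9.51 against 5.04 and 8.67.

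Against E18.5, 6 of the 25 genes were higher in P28 epithelium, where 13.5% of all genes were higher, and 1 was lower, where 11.3% were. Ncapg (2.60), Kif20b (2.10), Espl1 (1.96), Mki67 (1.88), Top2a (1.65) and Smc2 (1.28) were higher, with adjusted p of 0.00422, 0.00166, 0.0171, 0.00475, 0.00308 and 0.0131. Ncapg and Espl1 reached the filter value of 3 only at P7 or P28, so the way they entered the test favoured a rise. Smc4 was lower by 0.85 (SE 0.23, adjusted p = 0.0141). Its values were 152 and 206 at E18.5, 219 and 165 at P0.5, 135 and 152 at P2, 111 and 93.2 at P7 and 118 and 80.7 at P28. The E18.5 and P28 pairs did not overlap, and the direction is the reverse of that of its condensin partner Smc2. The total of 7 was 4 without P28 replicate 1. Over all stages 18 of the 25 differed, where 35.3% of all genes did, and 9 with the stricter filter.

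Between the cell types, levels were compared on CPM of the recovered reads (reads scaled to a common library total), scaled together over 20004 shared genes in 20 libraries, with 13386 genes and 27 mitosis genes tested. The median difference of the mitosis genes turned from negative at P2 to positive at P28. Of the single genes, only Top2a, Ncapg and Kif4 passed at both stages, in opposite directions. At P2, 10 of the 27 were lower in epithelium and 0 higher, where 19.4% of all genes were lower and 21.6% higher, with a median difference of -0.83 (-0.77 with genes at 0 set to their bound). Top2a had 4.79 and 9.68 CPM in epithelium and 30.9 and 57.7 CPM in fibroblasts (log2 difference -2.46, SE 0.35, adjusted p = 7.72e-06). The others were Ccnb2 (-2.67), Tpx2 (-2.51), Ncapg (-2.49), Kif11 (-2.28), Smc2 (-2.14), Ccna2 (-1.82), Cenpf (-1.55), Kif4 (-1.30) and Incenp (-0.999). At P28, 10 were higher in epithelium and 0 lower, where 19.5% of all genes were higher and 18.5% lower, with a median of 1.10. Top2a then had 88.5 and 53.2 CPM in epithelium and 20.8 and 11.4 CPM in fibroblasts (2.08, SE 0.35, adjusted p = 6.18e-05). Kif20b (2.07), Nusap1 (2.04), Ncapg (1.98), Mki67 (1.98), Bub1 (1.90), Espl1 (1.86), Kif4 (1.36), Smc4 (1.33) and Bub1b (1.18) were the others. Bub1, at 0 reads in the P28 fibroblasts, was at least 5.57-fold higher in epithelium, leaving out the counting error of the epithelial reads. Without epithelial replicate 1 the P2 count was 5, and without epithelial replicate 2 the P28 count was 6.

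At the other stages fewer genes differed. At E18.5, Smc4 (0.79) and Ect2 (1.42), which activates the small GTPase of cytokinesis, were higher in epithelium, and Ncapg (-1.77), Cenpe (-1.61), Birc5 (-1.60) and Smc2 (-0.97) lower, where 21.3% of all genes were higher and 16.9% lower. At P0.5, Ect2 (1.81) and Smc4 (0.96) were higher and Kif11 (-1.89) and Ccnb2 (-1.66) lower, where 22% and 19% of all genes were. At P7, Ncapg (-1.78), Ccnb2 (-1.60), Cenpa (-1.51), Pbk (-1.29) and Bub3 (-0.62) were lower in epithelium, where 15.8% of all genes were, and 0 were higher, where 19.6% were. Pbk reached the filter value of 3 only in the P7 fibroblasts, and Ect2 only in epithelium. The way these 2 genes entered the test favoured the directions given. The E18.5 count of 6 was 3 without either fibroblast library, with DESeq2 and with the stricter filter. The P0.5 count of 4 was 1 without epithelial replicate 1. The P7 count of 5 was 0 and 1 without epithelial replicates 1 and 2, 0 and 3 without fibroblast replicates 1 and 2, 2 with a pseudocount of 0.5 and 3 with the stricter filter.

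The change from P7 to P28 itself differed between the cell types for 7 of the 27 genes, each with the more positive change in epithelium, where 3.12% of all genes differed in this direction, and 0 the other way, where 5.48% did. Ncapg had the largest difference of changes, 3.76 on the log2 scale (SE 0.86, adjusted p = 0.00745), and Top2a the smallest p (2.90, SE 0.50, adjusted p = 0.000671). Nusap1 (2.79), Kif20b (2.55), Pbk (2.31), Mki67 (2.02) and Bub3 (1.10) had adjusted p of 0.0328, 0.0349, 0.0213, 0.0374 and 0.0267. Pbk reached the filter value of 3 only in the P7 fibroblasts, so the way it entered the test favoured this difference. The median was 1.37 against -0.05 over all genes. Ncapg and Top2a passed under every alternative. The count was 2 without epithelial P7 replicate 1 or 2 or without fibroblast P7 replicate 1, 3 without epithelial P28 replicate 1 and 4 without fibroblast P28 replicate 1.

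**Figure D4:**
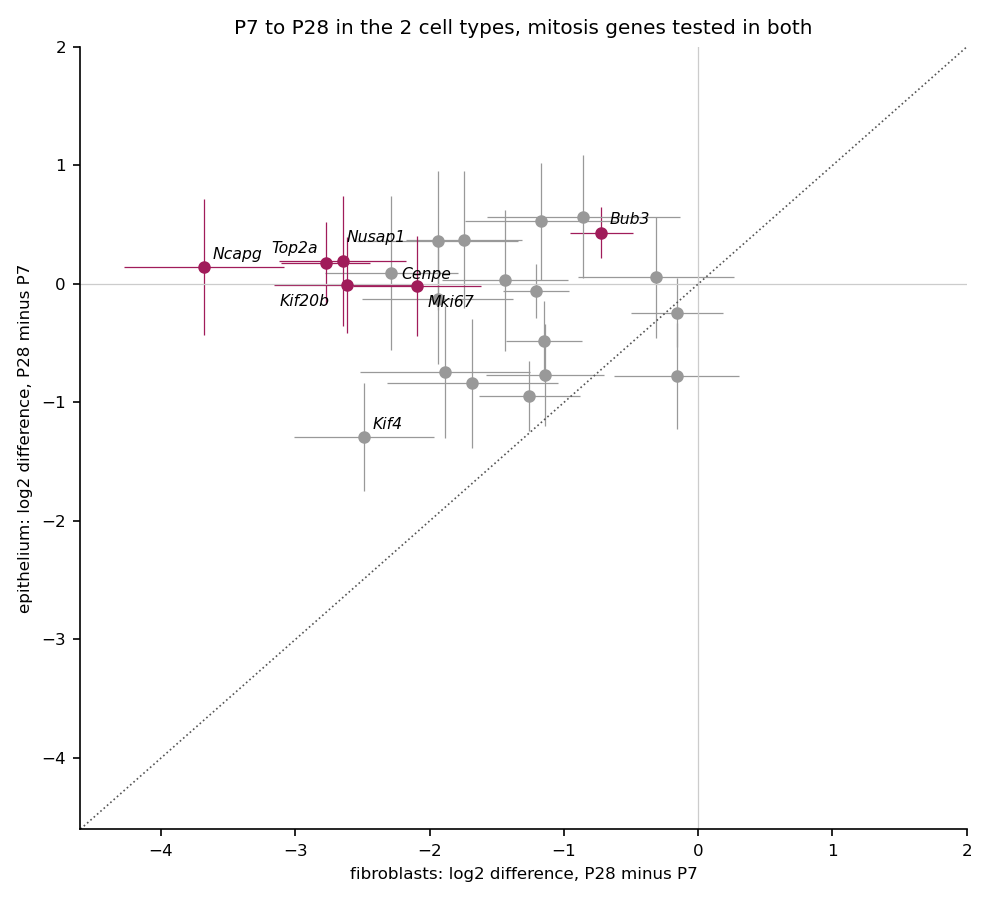
Log2 difference from P7 to P28 in fibroblasts (horizontal axis) against that in epithelium (vertical axis) for the 23 mitosis genes tested in both, with standard errors as bars and the line of equal change dotted. Coloured genes had a different change in the cell types at an adjusted p below 0.05; Pbk, which also differed, was not tested in epithelium alone and is not shown. Ncapg and Top2a lie far left, at -3.68 and -2.78 in fibroblasts.

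For the earlier steps the difference of changes passed for 1 gene. Top2a changed less from P0.5 to P2 in epithelium than in fibroblasts (-2.39, SE 0.50, adjusted p = 0.00741), where 2.58% of all genes differed in this direction. Without epithelial P0.5 replicate 1 or fibroblast P2 replicate 2 no gene passed, and 2 passed with a pseudocount of 4 and with the stricter filter. From E18.5 to P0.5 no gene passed, where 3.53% of all genes did, and 2 had an unadjusted p below 0.05 by limma. From P2 to P7 no gene passed, where 1.61% of all did. At that step 6 had an unadjusted p below 0.05 by limma, edgeR called 1 and DESeq2 2.

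Other genes of the cell cycle were counted as lists beside the 45. Of 33 genes of DNA replication and S phase, 7 of 23 tested rose in epithelium from P2 to P7 and 0 fell, with a median of 1.32, where 1.55% of all genes rose and 2.17% fell. In fibroblasts 9 of 24 rose from P0.5 to P2 and 12 of 24 fell from P7 to P28, with medians of 0.78 and -1.50 and 0 in the other direction. Of all genes, 9.74% rose and 7.2% fell at the first of these steps, and 11.3% rose and 9.49% fell at the second. Tk1, the thymidine kinase of S phase, fell in fibroblasts from 70.9 ± 7.80 at P7 to 9.22 ± 2.19 at P28 (SD, n = 2; log2 difference -2.83, adjusted p = 3.59e-06). Gins2, a part of the replicative helicase, fell from 71.1 ± 30.9 to 10.01 ± 0.0498 (SD, n = 2; -2.64, adjusted p = 1.3e-05). In epithelium 0 of the 23 passed from P7 to P28, where 7.28% of all genes did, with 1 unadjusted p below 0.05 by limma. Of 50 further mitosis genes, 12 of 28 tested fell in fibroblasts from P7 to P28 and 0 rose, with a median of -1.21, where 9.49% of all genes fell. Among them were Spc24, a kinetochore subunit (106.5 ± 10.6 to 16.9 ± 3.80, SD, n = 2; -2.60, adjusted p = 1.35e-06), and the condensin I subunits Ncapd2 (-1.21) and Ncaph (-2.67). In epithelium 3 of 27 of these genes rose from P2 to P7, where 1.55% of all genes did, namely Spc24 (1.796), Aspm (2.52) and Racgap1 (1.98).

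Of 8 G1 cyclins and kinases, 3 of 7 tested fell in fibroblasts from P7 to P28, Ccnd2 (-1.24), Cdk4 (-2.12) and Ccnd1 (-1.64), where 9.49% of all genes fell. Ccnd2, cyclin D2, had risen from 70.9 ± 0.261 at P0.5 to 234.9 ± 7.16 at P2 (SD, n = 2; 1.71, adjusted p = 6.81e-06). Among 10 cell cycle inhibitors and pocket proteins, Cdkn1a, which encodes the inhibitor p21, moved opposite to the mitosis genes at 3 fibroblast steps. It rose from 203.1 ± 82.2 at E18.5 to 1859 ± 43.4 at P0.5 (SD, n = 2; 3.25, SE 0.23, adjusted p = 4.26e-08), and was 1293 ± 88.6 at P2. It fell to 521.6 ± 44.4 at P7 (-1.31, adjusted p = 0.00119) and rose to 1144 ± 254 at P28 (1.12, adjusted p = 0.00154). The inhibitor Cdkn2c, which encodes p18 of the INK4 family, moved in the direction of the mitosis genes at 3 fibroblast steps, with log2 differences of -2.34 from E18.5 to P0.5, 2.11 from P0.5 to P2 and 1.87 from P2 to P7 (adjusted p = 0.000578, 0.00126 and 0.0069). The change of Cdkn1a from P7 to P28 was more positive in fibroblasts than in epithelium (difference of changes -1.24, adjusted p = 0.0196). Of the other tested members of that list, the inhibitor Cdkn1c and the pocket protein Rbl1 fell from P7 to P28 in fibroblasts (-1.45 and -1.45). Among 15 genes of the E2F, B-Myb and MuvB factors, which bind promoters of cell cycle genes, 3 of 12 fell at that step and 1 rose, where 9.49% of all genes fell and 11.3% rose, with E2f7 (-2.50) and Tfdp1 (-1.04) lower and Lin52 (1.59) higher.

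Markers of blood cells, which the lineage gates should remove, moved with some of these stages. The leukocyte markers summed to 112 to 421 in P2 epithelium, 12.9 to 24.1 in P7 epithelium and 1152 to 1339 in P28 epithelium. At P7, of the 7 leukocyte markers in the epithelial tables, Ptprc, Coro1a and Fcer1g were at 0 in both epithelial libraries. Tyrobp was then at 0 to 0.187, Laptm5 at 0.560 to 1.12, C1qa at 0 to 3.55 and Csf1r at 12.3 to 19.2. At P28 Csf1r was 18.4 to 18.9, Tyrobp was 642 to 703, Laptm5 425 to 558 and Ptprc 12.4 to 21.3. In fibroblasts the leukocyte sum was 0 to 3.41 at P7 and 34.0 to 122 at P28. The part of leukocytes in the epithelial change from P2 to P7, in the P28 epithelial levels, and in the difference of changes from P7 to P28, was not tested. Erythroid markers, led by haemoglobin Hbb-bs, were lowest among the replicated stages at P7 in both cell types, with 27.1 to 155 in epithelium and 48.8 to 96.5 in fibroblasts. At the other stages they came to 399 to 3803 in epithelium and 331 to 2154 in fibroblasts with replicates, and to 0.134 at P56. Their part in the higher mitosis values at P7 was not tested. In epithelium the endothelial markers summed to 26.8 to 50.9 at E18.5, with Kdr at 23.4 to 45.4 and Pecam1 and Cdh5 at 0, to 5.51 to 7.64 at P0.5, with Kdr at 4.77 to 5.09, and to 3.92 to 16.1 at the later stages. The leukocyte sum was 147 to 401 at E18.5 and 132 to 166 at P0.5, with C1qa at 67.5 to 183.7 and 10.5 to 12.5. The part of these markers in the lower mitosis values of P0.5 epithelium was not tested. In fibroblasts the endothelial sum was 0.426 to 14.5.

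**Figure D5:**
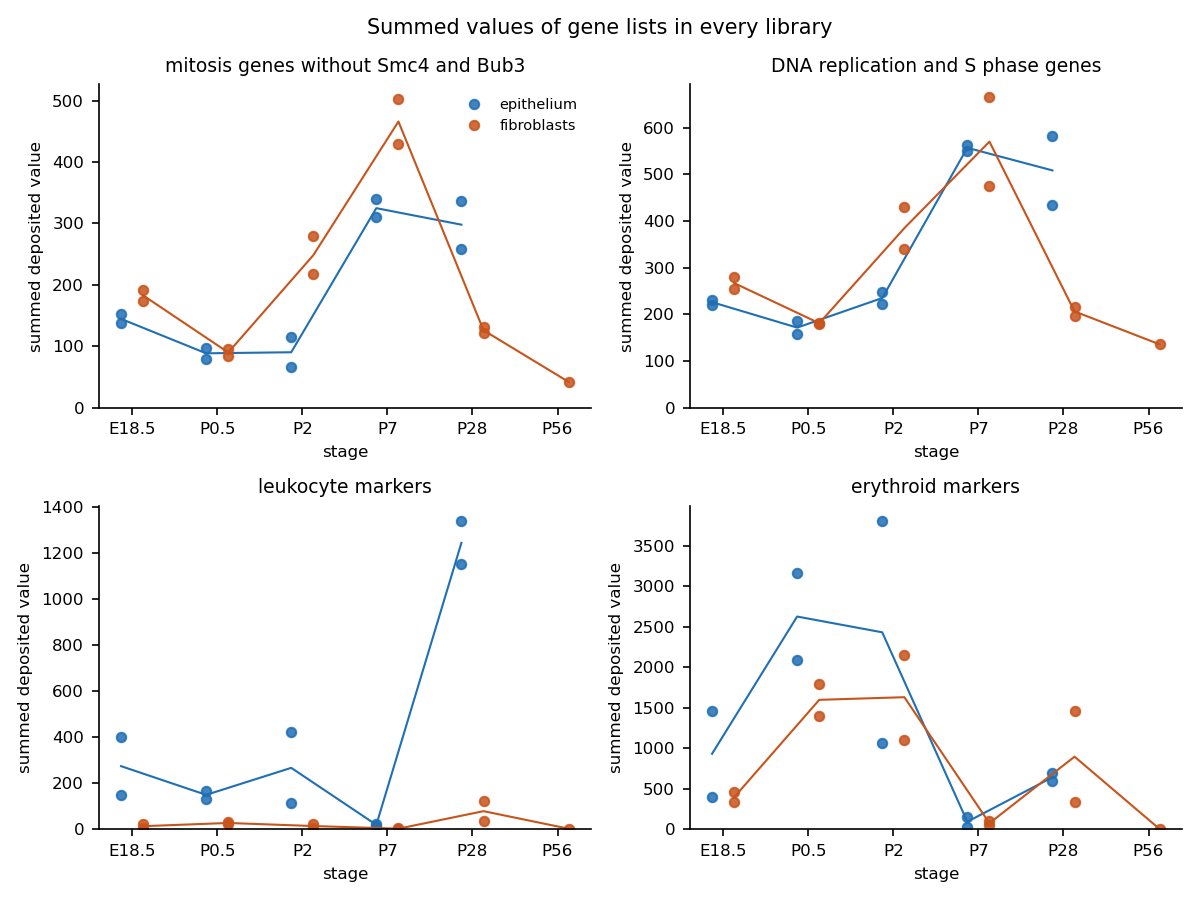
Summed deposited values by stage (evenly spaced) of the mitosis genes without Smc4 and Bub3, the S phase genes, the leukocyte markers and the erythroid markers, in epithelium (blue) and fibroblasts (orange). Points are libraries and lines join group means; the leukocyte sum is 1152 to 1339 in P28 epithelium, and both blood lists are low at P7, where the mitosis sum is high.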

How the data were processed

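Values were measured in 10 epithelial and 11 fibroblast libraries sequenced on an Ion Proton from amplified poly(A) RNA. The deposited signal values are read counts that the authors divided by a factor per library; 100% of them came out as whole reads, within a tolerance of 0.01, once divided by the value of 1 read. The submitters' processing notes name the genome build mm10, the aligner Bowtie2 2.2.5 and R 3.4.0; the counting of tags, and its use of strand, are steps that the sources used here do not describe. Libraries held 2282124 to 5602529 reads in epithelium and 2146071 to 5729829 in fibroblasts. Replicates differed by more than counting noise, with chi-square per degree of freedom of 4.64 to 10.6. Intervals and floors cover counting error only, since reads carry no molecular identifiers. A floor covers the error of the count of 0 and not that of the higher count.

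Stages were compared per cell type with limma 3.58.1 (R 4.3.3) on log2(value + 1), all libraries of a cell type sharing 1 estimate of spread and P56 entering no contrast, for genes with a value of at least 3 in at least 2 libraries. Cell types were compared in 1 fit over 20 libraries on log2(CPM + 1) of recovered reads with TMM scaling. The differences of changes are interaction terms of that fit, and all tests are two-sided. P-values were adjusted by Benjamini-Hochberg over all genes tested. Alternatives were pseudocounts of 0.5 and 4, no filter, a filter at 10, edgeR 4.0.16 and DESeq2 1.42.0 on recovered reads, another scaling, a replicate block and leaving out each library; where this left 1 library in a group, that library was assumed to vary like the others. The fits were tested on simulated data for the step from P2 to P7, with 100 genes changed per fold. Of changes of 2-fold, 36 were recovered in epithelium, 32 in fibroblasts and 9 for the difference of changes. Of changes of 4-fold, 86, 86 and 61 were recovered. The changed genes were drawn only from those above a minimum mean level. Several tested mitosis genes, among them Ccna2 and Birc5 in epithelium, lay below it, and recovery at their levels was not tested. A step where no gene passed can thus hold changes of 2-fold that were missed, and larger ones in low genes. Gene positions were read from GRCm38 and promoter windows from RefSeq (GRCm38.p6). All 45 genes matched by identifier and 36 had a window. Every member past the threshold could be named, and of the other lists up to 3 genes per comparison with the smallest p among those past it. The 45 genes and all lists were chosen with earlier results of these data known.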

Additional observations from a re-analysis of the deposited data

Results flagged for a closer look

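The changes of 8 gene and step combinations differed between epithelium and fibroblasts by a test of the difference itself, an interaction term in limma over 20 libraries with p-values adjusted over all genes. From P0.5 to P2 the change of Top2a was more negative in epithelium (-2.39). From P7 to P28 the change was more positive in epithelium for Ncapg (3.76), Top2a (2.90), Nusap1 (2.79), Kif20b (2.55), Pbk (2.31), Mki67 (2.02) and Bub3 (1.10). For Pbk, which reached the filter value of 3 only in the P7 fibroblasts, the filter favoured this difference.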

How the results depend on the processing

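Of 2215 repeats of member results that had passed, 1920 stayed past the threshold, 295 did not, and 0 changed direction; 215 of the losses came from leaving out 1 library. Counts of genes past the threshold that moved by over 1.5 times were as follows. With DESeq2, 1 passed in epithelium from P0.5 to P2, 2 in fibroblasts from E18.5 to P0.5, 1 from P2 to P7 and 11 from P7 to P28, 3 between the cell types at E18.5, and 2 for the difference of changes from P2 to P7. With edgeR, 1 passed in epithelium from P7 to P28 and 1 for the difference of changes from P2 to P7. Without the filter, 1 passed in epithelium from E18.5 to P0.5 and 2 from P2 to P7, and in fibroblasts 2 from E18.5 to P0.5, 5 from P0.5 to P2 and 1 from P2 to P7. With a pseudocount of 0.5, 2 passed between the cell types at P7. With a pseudocount of 4, 5 passed in fibroblasts from P2 to P7 and 2 for the difference of changes from P0.5 to P2. With the filter at 10, which tests fewer genes, 3 passed in epithelium from P2 to P7 and 9 over all stages. In fibroblasts it gave 2 from E18.5 to P0.5, 1 from P2 to P7, 11 from P7 to P28, 2 from E18.5 to P28 and 12 over all stages. It gave 3 between the cell types at E18.5 and 3 at P7, and for the difference of changes 2 from P0.5 to P2 and 1 from P2 to P7. Apart from the filter, the cause of these moves was not tested.

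Leaving out 1 library at a time gave 0 to 8 calls in epithelium from E18.5 to P0.5, 0 to 2 from P0.5 to P2, 2 to 8 from P2 to P7, 0 from P7 to P28, 4 to 7 from E18.5 to P28 and 13 to 19 over all stages. In fibroblasts it gave 1 to 5, 2 to 9, 0 to 3, 8 to 17, 3 to 7 and 12 to 20 for the same comparisons. Between the cell types it gave 3 to 6 at E18.5, 1 to 5 at P0.5, 5 to 11 at P2, 0 to 5 at P7 and 6 to 13 at P28, and for the differences of changes 0 to 1, 0 to 2, 0 to 3 and 2 to 9 by step. Other scaling moved the median of all genes by at most 0.0593 on the log2 scale and ended 1 member call.

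Within a cell type, the replicate numbers did not pair libraries across stages. Of 10 pairs of stages per cell type 0 had a correlation of deviations over 0.1 (-0.0621 to 0.0738 in epithelium, -0.0377 to 0.0404 in fibroblasts). Whether epithelial and fibroblast libraries of a stage came from the same lungs was not tested. The fit over both cell types treated them as independent. With the replicate block, 98 of 100 member calls kept their side of the threshold and 17 fibroblast genes differed from P7 to P28. Depth limits the low genes: the 18 members tested in neither cell type were kept out by the filter on low values, so whether they changed was not tested there.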
